A study of Homo sapiens with 6 samples.

Results

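The genes described are 10 liver genes of lipoprotein assembly and transport: the apolipoprotein genes APOA1, APOA2, APOB, APOC1, APOC3, APOE, APOH and APOM, and the genes MTTP and LCAT. They were chosen by symbol, and all 10 were found among the 27689 gene symbols of the deposited table. RNA came from cells labelled Huh7, a human hepatocellular carcinoma line, and was sequenced as polyadenylated RNA in 6 libraries. There were 3 NC libraries and 3 NACER_ASO libraries, the latter from cells in which NACER, a liver lncRNA, was knocked down according to the series. Titles also give a set number (2, 5 or 6), and in every set NC and NACER_ASO have 1 library apiece. What a set is, and whether sets are separate cultures, the labels leave unsaid, and the p-values then reflect only the spread of these libraries, which may be technical.

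Lipoproteins are particles that carry cholesterol and triglyceride through blood. Hepatocytes build very low density lipoprotein by loading lipid onto APOB in the endoplasmic reticulum, a step that needs the transfer protein encoded by MTTP. High density lipoprotein instead forms around APOA1 and APOA2 outside the cell, and its cholesterol is esterified by LCAT, which APOA1 activates. The small apolipoproteins of the C group and APOE move between particles and set how fast these are broken down and taken up.

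Values are FPKM (fragments assigned to a transcript, divided by its length in kilobases and by library size), summed over the transcripts of each symbol. Since FPKM is scaled by transcript length, levels can be compared between genes, but only roughly. Listed transcripts of the members ran from 473 bases (APOA2) to 14121 bases (APOB). In bulk RNA, fewer cells expressing a gene and less RNA per cell cannot be told apart. The number of genes at 1 FPKM or more ran from 12738 to 14635. The low values of the table implied roughly 15.6 M to 28.3 M fragments per library, with NC set 2 the shallowest.

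The libraries of set 5 stood apart from the other 4, although all carry the same cell line label. LUM, a matrix proteoglycan gene, was listed at 0 and 0.0167 FPKM in NC and NACER_ASO set 5, against 181.8 to 224.1 FPKM elsewhere. CDX2, an intestinal transcription factor gene, was at 54.3 and 50.5 FPKM in set 5 and at 1.02 to 1.82 FPKM elsewhere. COL1A2, a fibrillar collagen gene, was listed at 0 and 0.0119 FPKM in set 5 and at 21.8 to 36.1 FPKM elsewhere. The labels do not say whether set 5 came from the same stock of Huh7 cells as sets 2 and 6, so for every set 5 result given here a difference between sets and one between stocks of cells cannot be told apart. Hepatocyte markers were present throughout: all 12 of 12 were tested, with a summed level of 3748 to 9682 FPKM in NC and 3877 to 9857 in NACER_ASO, lowest in set 6 and highest in set 5 in both groups. Taken gene by gene, 4 of them were called higher and 5 lower in set 5 than in set 2 (23.5% and 46.8% of all genes). Their median log2 difference was -0.012, so the higher sum in set 5 was not shared by the markers as a class. Of the 8 enterocyte markers the sum ran from 70.2 to 145.7 FPKM in NC and from 66.9 to 144.8 in NACER_ASO, with FABP2 at 0 in 5 of 6 libraries. Macrophage markers summed to 46.0 to 59.0 and 40.7 to 68.2 FPKM, nearly all of it CD68, and 6 of 8, including PTPRC, stayed under 1 FPKM. Stromal markers summed to 2.01 to 235.9 and 2.44 to 265.0 FPKM, with both low values in set 5. What part these other markers have in the differences between sets was not tested.

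The RefSeq promoter table (build GRCh38.p14) held 9 start windows for 6 of the 10 genes, namely APOA2, APOC1, APOE, APOH, APOM and MTTP. Shown are the 250 bases before the starts of MTTP, which had its highest level in set 5, and of APOA2 and APOH, which had their lowest level there. The window of APOC1, also lowest in set 5, held no match to the motifs below and is not shown. MTTP has 2 annotated starts in RefSeq, and both deposited MTTP transcripts have the same start in hg19, so the FPKM values do not separate them. Capitals mark matches, on either strand, to the TATA box TATAAA, to the box CCAAT, to the HNF1 factor motif GTTAAT, to the HNF4 factor motif CAAAGTNCA and to the FOXA factor motif TGTTTAC.
MTTP upstream start (chr4:99563880-99564129, plus strand): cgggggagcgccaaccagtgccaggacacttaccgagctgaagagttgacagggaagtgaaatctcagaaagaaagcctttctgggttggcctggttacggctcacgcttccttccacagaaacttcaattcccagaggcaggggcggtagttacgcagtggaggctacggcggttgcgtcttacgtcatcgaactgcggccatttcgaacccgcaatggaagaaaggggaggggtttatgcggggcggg
MTTP downstream start (chr4:99574574-99574823, plus strand): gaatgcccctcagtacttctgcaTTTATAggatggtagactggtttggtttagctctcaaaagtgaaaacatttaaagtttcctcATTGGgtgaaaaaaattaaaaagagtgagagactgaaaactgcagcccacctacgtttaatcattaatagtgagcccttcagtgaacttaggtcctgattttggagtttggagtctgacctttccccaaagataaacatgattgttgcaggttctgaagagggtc
APOA2 (chr1:161223629-161223878, minus strand): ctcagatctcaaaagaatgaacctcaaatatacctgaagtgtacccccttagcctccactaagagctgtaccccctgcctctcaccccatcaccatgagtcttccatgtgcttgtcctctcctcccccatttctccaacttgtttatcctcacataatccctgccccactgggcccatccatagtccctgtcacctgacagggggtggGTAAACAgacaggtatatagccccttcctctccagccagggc
APOH (chr17:66229416-66229665, minus strand): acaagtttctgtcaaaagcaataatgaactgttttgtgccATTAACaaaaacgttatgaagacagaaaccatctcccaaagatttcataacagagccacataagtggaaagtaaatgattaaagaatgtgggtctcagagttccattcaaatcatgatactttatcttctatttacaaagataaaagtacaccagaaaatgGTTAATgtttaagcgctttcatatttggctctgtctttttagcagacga

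Among the 9 windows, TGTTTAC was found only in that of APOA2, on the strand opposite to the one shown, between 42 and 36 bases before the start, and 2.98% of all 35116 windows of this length held it. GTTAAT occurred on each strand in the APOH window and in 6.23% of all windows. TATAAA was found in the downstream MTTP window, 227 to 222 bases before the start, and in 10.7% of all windows. CCAAT was found in 3 of the 9 windows, 2 of APOE and 1 of MTTP, and in 32% overall. CAAAGTNCA matched none of the 9 windows and 0.94% of all. Only exact matches were sought, so a window without a match may still hold a variant of the motif. No motif match overlapped another in the sequences shown.

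APOE, the ligand for receptor uptake of remnant particles, had the highest level of the 10 genes in 4 of 6 libraries, and APOA1 had it in set 5. APOE was at 650.8, 375.7 and 346.4 FPKM in NC sets 2, 5 and 6 and at 557.7, 396.7 and 390.6 FPKM in NACER_ASO. Over the 6 libraries the mean level ran in the order APOE (453.0 FPKM), APOA2 (298.1), APOA1 (176.6), APOC1 (124.4), APOB (122.0), MTTP (34.5), APOC3 (26.2), APOM (13.3), APOH (12.6) and LCAT (6.67). Neighbours in that order overlapped in range over the libraries at each of the 9 steps, because most genes differed widely between sets. APOE and LCAT did not overlap with each other.

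The order itself changed with the set. In sets 2 and 6 it began with APOE, APOA2, APOC1 and APOB in all 4 libraries, while in both libraries of set 5 it began with APOA1, APOE, APOB, APOC1 and MTTP. Together the 10 genes made up 0.351% of the summed FPKM in both set 2 libraries, 0.313% and 0.314% in NC and NACER_ASO set 5, and 0.197% and 0.215% in set 6.

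**Figure D1:**
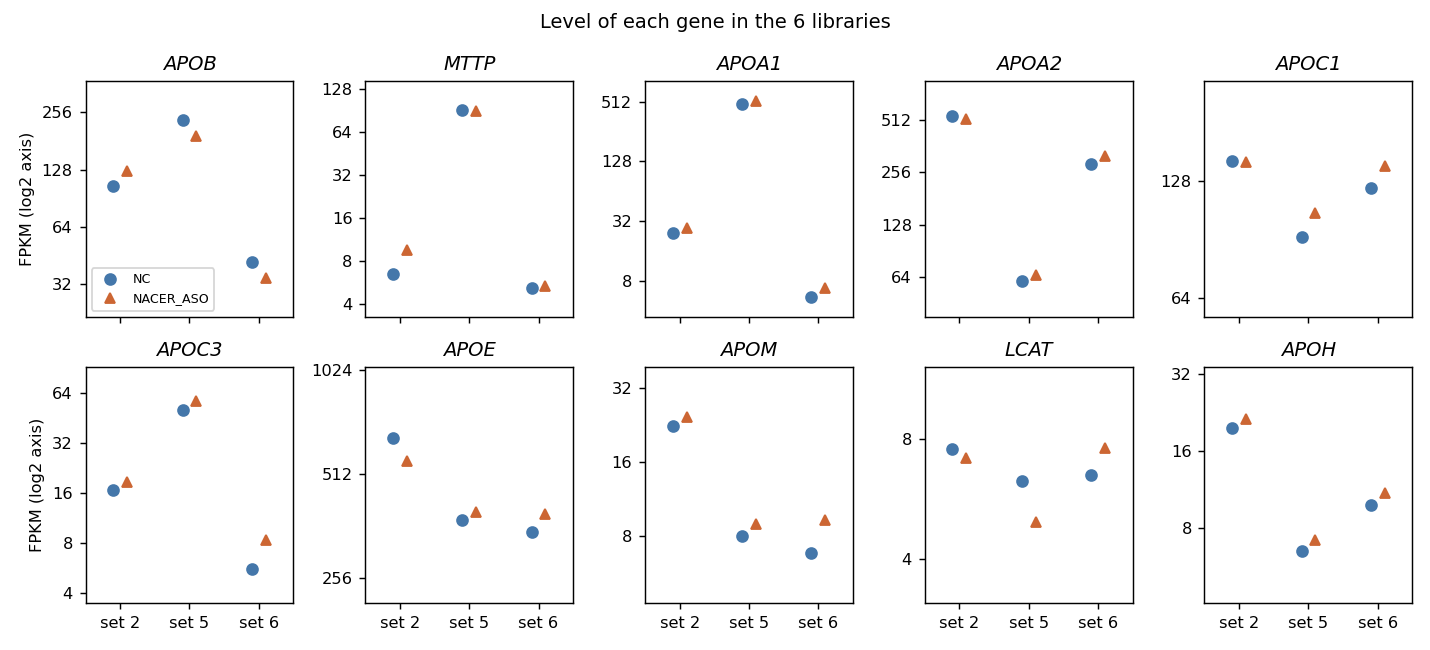
Level of each of the 10 genes in FPKM (log2 axis, scaled for each gene) by set, with circles for NC and triangles for NACER_ASO, 1 point per library. The 2 libraries of a set lie near each other: APOA1 is at 479.6 and 516.3 FPKM in set 5 and between 5.54 and 26.9 FPKM in the others.

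The sets were compared in limma on log2(FPKM + 1) with the group kept as a term, so that the 2 libraries of a set served as its replicates. By the moderated F test, 9 of the 10 genes differed between sets at an adjusted p under 0.05, and LCAT did not (adjusted p = 0.111). Across all 13576 genes tested the same call was made for 81.2%, so the count of members lies near the background. Testing needed 1 FPKM in 3 or more libraries. A gene that reached this level only in set 5 was left out, while one that fell short only in set 5 was kept. Shares of higher and lower genes in set 5 therefore depend partly on the filter, here and in the lists below. Against set 2, set 5 differed in 9 members (70.3% of all genes), higher in 4 and lower in 5, beside 23.5% and 46.8% of all genes. Against set 6, set 5 differed in 7 members (64.3% of all genes), higher in 4 and lower in 3, beside 23.8% and 40.6%. Set 6 differed from set 2 in 8 members (48.2% of all genes), lower in all 8 and higher in 0, beside 27.3% and 20.9%. Of the 12 hepatocyte markers, 11 were likewise lower in set 6 than in set 2 and 0 higher, with a median of -0.85 on the log2 scale where the members had -0.86. What part this has in the members' difference was not tested. For 7 members the ranges of the 3 sets did not overlap at all, as for 52% of all genes. The median size of the difference, regardless of sign, was 1.41 on the log2 scale over the members and 0.55 over all genes for set 5 against set 2, 1.39 and 0.48 for set 5 against set 6, and 0.86 and 0.32 for set 6 against set 2. In the same order it was 0.69, 1.20 and 0.85 over the hepatocyte markers. Over the receptors and clearance genes listed below it was 1.21, 1.05 and 0.63, and over assembly and secretion genes 0.42, 0.49 and 0.20. Fold changes near 1 FPKM are understated on this scale, and the median over all genes includes such genes.

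Scaling shifted all genes together. The median over all genes was -0.26 for set 5 minus set 2 and -0.16 for set 5 minus set 6, and -0.03 and 0.01 after median-of-ratios scaling. With that scaling the calls for set 5 against set 2 went from 3188 higher and 6350 lower genes to 4568 and 4799, and those against set 6 from 3225 and 5509 to 4332 and 4360. Differences of members are given as fitted, and each can be read against those medians.

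APOB, the structural protein of very low density lipoprotein, was highest in set 5. It was at 104.6, 233.9 and 41.8 FPKM in NC sets 2, 5 and 6, and at 126.4, 191.1 and 34.4 FPKM in NACER_ASO. The 3 sets did not overlap, with set 5 highest and set 6 lowest. The log2 difference was 0.87 for set 5 minus set 2 (SE 0.15, limma adjusted p = 0.00247), 2.45 for set 5 minus set 6 (adjusted p = 5.73e-05) and -1.58 for set 6 minus set 2 (adjusted p = 0.00118). In hg19 the gene lies on chromosome 2 from 21224301 to 21266945, and the table lists 1 transcript of 14121 bases.

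MTTP encodes the subunit of the microsomal transfer protein that carries lipid to APOB. Its level was 6.50, 90.5 and 5.21 FPKM in NC sets 2, 5 and 6 and 9.51, 89.8 and 5.39 FPKM in NACER_ASO. Both set 5 libraries lay far above the other 4, and set 2 lay slightly above set 6. The mean of set 5 was 11.3 times that of set 2 and 17.0 times that of set 6. On the log2 scale, set 5 exceeded set 2 by 3.36 (SE 0.14, limma adjusted p = 1.94e-05) and set 6 by 3.85 (adjusted p = 1.11e-05). Set 6 minus set 2 was -0.50 (adjusted p = 0.0280), a call that ended without the NACER_ASO library of set 2 (adjusted p = 0.0527) or that of set 6 (0.102). There were 16.1, 2.59 and 8.02 FPKM of APOB for each FPKM of MTTP in NC sets 2, 5 and 6, and 13.3, 2.13 and 6.38 in NACER_ASO, so the ratio was lowest in set 5 in both groups.

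APOA1 and APOA2, the 2 main proteins of high density lipoprotein, differed in opposite directions in set 5, while both were lower in set 6 than in set 2. APOA1 was at 24.5, 479.6 and 5.54 FPKM in NC sets 2, 5 and 6 and at 26.9, 516.3 and 6.78 FPKM in NACER_ASO. No other member ranged so widely: the highest library held 93.3 times the level of the lowest. Set 5 exceeded set 2 by 4.23 on the log2 scale (SE 0.073, limma adjusted p = 2.62e-06) and set 6 by 6.13 (adjusted p = 6.99e-07), and set 6 minus set 2 was -1.90 (adjusted p = 0.000336). Among all genes of a library, counting the highest as 1, APOA1 ranked 128 in NC set 5, 3373 in NC set 2 and 8731 in NC set 6.

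APOA2 was at 538.5, 60.2 and 285.8 FPKM in NC sets 2, 5 and 6 and at 518.5, 65.2 and 320.1 FPKM in NACER_ASO. Both set 5 libraries were lowest and both set 2 libraries highest. The log2 difference was -3.06 for set 5 minus set 2 (SE 0.080, limma adjusted p = 5.78e-06), -2.25 for set 5 minus set 6 (adjusted p = 1.09e-05) and -0.80 for set 6 minus set 2 (adjusted p = 0.00129). Set 5 thus held 7.96 and 7.92 FPKM of APOA1 for each FPKM of APOA2 in NC and NACER_ASO. In sets 2 and 6 the balance was turned, with 22.0 and 51.6 FPKM of APOA2 for each FPKM of APOA1 in NC and 19.3 and 47.2 in NACER_ASO. APOA2 lies on chromosome 1 (hg19, 161192083 to 161193418) and has 1 listed transcript.

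APOC3, which slows the clearance of triglyceride-rich particles, followed APOA1 and APOB in direction. It was at 16.7, 50.7 and 5.60 FPKM in NC sets 2, 5 and 6 and at 18.7, 57.4 and 8.38 FPKM in NACER_ASO. The sets did not overlap, again with set 5 highest and set 6 lowest. The log2 difference was 1.56 for set 5 minus set 2 (SE 0.11, limma adjusted p = 9.21e-05), 2.80 for set 5 minus set 6 (adjusted p = 1.52e-05) and -1.25 for set 6 minus set 2 (adjusted p = 0.00109). In all, APOA1, APOB, APOC3 and MTTP lay in set 5 above both other sets without overlap, as did 22.7% of all genes tested, and the same 4 genes lay in set 6 below both other sets, as did 15.1%.

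APOC1, a small apolipoprotein that inhibits several lipid-processing enzymes, varied little. It was at 144.0, 91.6 and 122.2 FPKM in NC sets 2, 5 and 6 and at 143.1, 105.9 and 139.4 FPKM in NACER_ASO. Set 5 was lowest in both groups, by 0.54 against set 2 on the log2 scale (limma adjusted p = 0.00154). The difference of -0.40 to set 6 passed as well (adjusted p = 0.00578), but not after median-of-ratios scaling (adjusted p = 0.0972) or without NC set 5 (adjusted p = 0.0833). Set 6 minus set 2 was -0.14 (adjusted p = 0.207), and it passed without NACER_ASO set 2, at -0.24 (adjusted p = 0.0286). With the most abundant transcript alone, neither call of APOC1 held (adjusted p = 0.0928 against set 2 and 0.0777 against set 6).

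Set 2 was the highest for APOE, whose values are given above. The log2 difference was -0.64 for set 5 minus set 2 (SE 0.11, limma adjusted p = 0.00266) and -0.71 for set 6 minus set 2 (adjusted p = 0.00408). Sets 5 and 6 differed by 0.07 (95% confidence interval -0.20 to 0.34, adjusted p = 0.598), and their ranges overlapped.

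APOM, which carries sphingosine-1-phosphate on high density lipoprotein, was also highest in set 2. It was at 22.3, 7.94 and 6.79 FPKM in NC sets 2, 5 and 6 and at 24.4, 8.95 and 9.30 FPKM in NACER_ASO. Both set 2 libraries were well above the other 4, which overlapped. Set 5 minus set 2 was -1.37 (SE 0.10, limma adjusted p = 0.000119) and set 6 minus set 2 was -1.44 (adjusted p = 0.000790), while set 5 minus set 6 was 0.07 (95% confidence interval -0.18 to 0.33, adjusted p = 0.558).

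APOH, also called beta-2-glycoprotein I, binds anionic phospholipid. Its level was 19.6, 6.54 and 9.87 FPKM in NC sets 2, 5 and 6 and 21.2, 7.20 and 10.97 FPKM in NACER_ASO. The sets did not overlap, with set 2 highest and set 5 lowest. The log2 difference was -1.45 for set 5 minus set 2 (SE 0.084, limma adjusted p = 5.16e-05), -0.54 for set 5 minus set 6 (adjusted p = 0.00219) and -0.91 for set 6 minus set 2 (adjusted p = 0.00118).

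LCAT, which esterifies cholesterol on high density lipoprotein, was the lowest of the 10 genes on average. It was at 7.55, 6.29 and 6.51 FPKM in NC sets 2, 5 and 6 and at 7.17, 4.96 and 7.57 FPKM in NACER_ASO. The set 5 libraries were lowest in each group, and no set difference passed in limma (adjusted p = 0.0652 for set 5 against set 2, 0.118 for set 5 against set 6 and 0.744 for set 6 against set 2). The interval for set 5 minus set 2 ran from -0.68 to -0.0049. Without NC set 5 that difference passed, at -0.52 (adjusted p = 0.0477), and it also passed without NC set 6 (adjusted p = 0.0432) or the NACER_ASO library of set 6 (0.0438). Set 5 minus set 6 passed without NC set 6 (-0.47, adjusted p = 0.0480). APOA2, APOC1, APOH and LCAT lay in set 5 below both other sets without overlap, as did 41.1% of all genes, and APOA2, APOC1, APOE, APOH and APOM lay in set 2 above both, as did 28.2%.

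**Figure D2:**
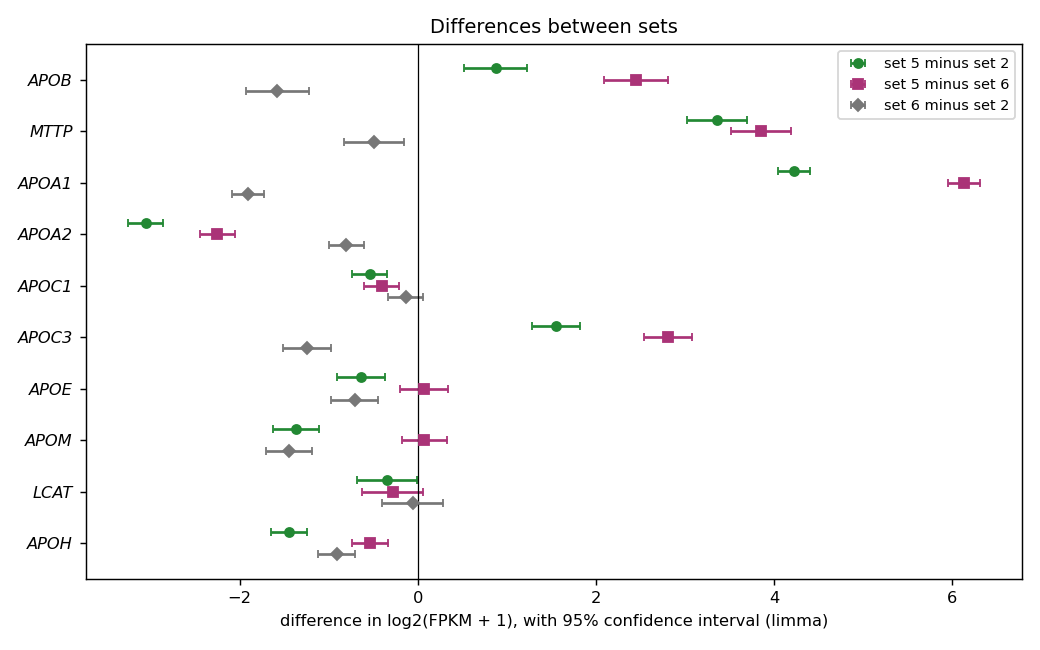
Pairwise differences between sets for each gene, in log2(FPKM + 1), as points with 95% confidence intervals from limma. APOB, MTTP, APOA1 and APOC3 lie right of 0 for set 5 against both other sets, with APOA1 at 4.23 and 6.13, and APOA2 lies left of 0 at -3.06 and -2.25.

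Several of these genes are neighbours. On chromosome 11 (hg19), APOA5, APOA4, APOC3 and APOA1 lie within 48.6 kb. The set 5 mean was 80.8 times the set 6 mean for APOA1 and 7.73 times for APOC3, and both genes were highest in set 5 and lowest in set 6. APOA4, an intestinal apolipoprotein, was low throughout, at 2.23, 1.37 and 0.622 FPKM in NACER_ASO sets 2, 5 and 6 and at 1.09 and 0.0855 FPKM in NC sets 5 and 6, and it was highest in set 2. APOA5, a cofactor of lipoprotein lipase, stayed under 1 FPKM in all 6 libraries.

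On chromosome 19, APOE, APOC1, APOC4 and APOC2 lie within 43.8 kb. APOC2, the activator of lipoprotein lipase, was at 250.9 and 248.4 FPKM in NC sets 2 and 6 and at 235.1 and 273.5 FPKM in NACER_ASO. In set 5 it was at 0.273 and 0.174 FPKM in NC and NACER_ASO, and the joint APOC4-APOC2 transcript was under 1 FPKM in every library. The log2 difference of APOC2 was -7.64 for set 5 minus set 2 (limma) and 0.10 for set 6 minus set 2 (adjusted p = 0.379). In the same set 5 libraries, APOE kept 0.639 and APOC1 0.688 of their set 2 mean. APOC4 was listed at 0 in 5 of 6 libraries.

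**Figure D3:**
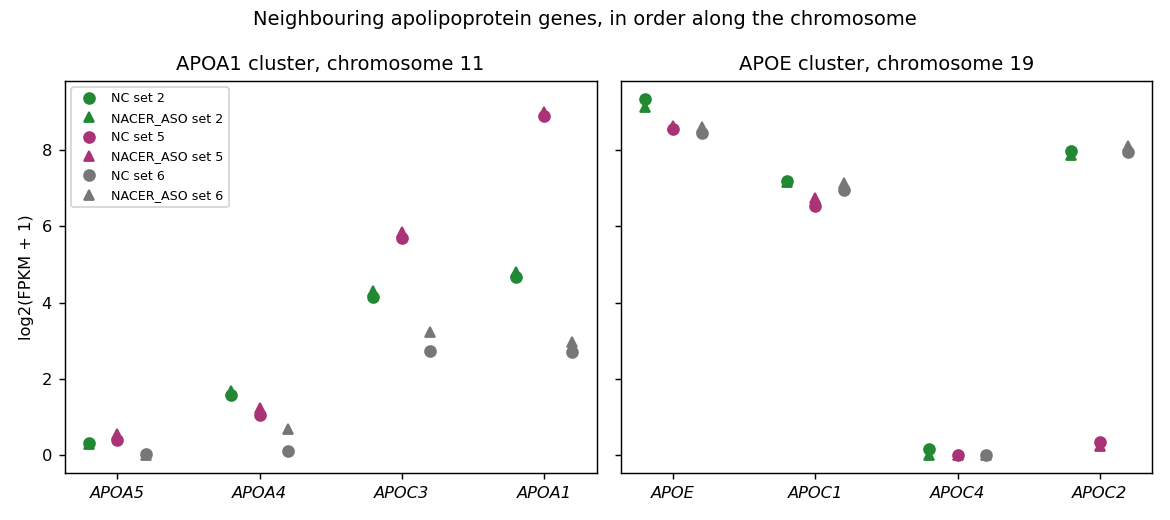
Levels in log2(FPKM + 1) of the apolipoprotein genes of the chromosome 11 and chromosome 19 clusters, in order along the chromosome but not to scale, with circles for NC, triangles for NACER_ASO and 1 colour per set. APOA1 is highest in set 5 (479.6 and 516.3 FPKM), whereas APOC2 is near 0 only in set 5 (0.273 and 0.174 FPKM).

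Transcript estimates add detail for the 5 members with more than 1 listed transcript. Variant 1 made up 96.1% of APOA1 in NC set 5 but 72.8% in NACER_ASO set 5, where variant 2 was at 72.0 FPKM against 8.20 FPKM in NC. Variant 1 of APOC1 likewise ranged from 27.2% in NC set 5 to 74.0% in NACER_ASO set 6. The main transcript of APOE, variant 2, held between 93.6% and 94.9% in every library, and variant 1 of APOM between 75.8% and 98.2%. Variant 2 of MTTP took 25.9% in NACER_ASO set 2 and was listed at 0 in NC set 2 and in both set 6 libraries. Division of reads among overlapping transcripts is uncertain, and these shares come from single libraries with no test.

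The question posed by the groups is whether the genes differ between NACER_ASO and NC. In the limma fit without the set as a term, none of the 10 genes passed, and neither did any of the 13576 genes tested (0%). At an unadjusted p under 0.05 there were 20 genes (0.147%), none of them a member. The set differences enter the error of that fit, and the interval for APOA1 ran from -4.74 to 5.06 around a difference of 0.16 on the log2 scale. The exact permutation test gave two-sided p-values between 0.5 (APOM) and 1 (APOE), where 3 against 3 libraries cannot go below 0.1. NC and NACER_ASO ranges overlapped for all 10 genes, and they did not overlap for 1.57% of all genes.

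The set number, taken as a pairing, was also fitted as a block. No member passed in that limma fit and no gene did (0%), with adjusted p between 0.344 and 0.974 for the members. Unadjusted p was under 0.05 in 3 of the 10 members, APOC3, APOA1 and APOM, and in 12.4% of all genes. The blocked difference was 0.28 for APOC3 (SE 0.090, adjusted p = 0.344), 0.16 for APOA1 (SE 0.060, adjusted p = 0.367) and 0.23 for APOM (SE 0.085, adjusted p = 0.378). Over the members the median difference was 0.13, and over all genes it was 0.041.

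Within sets, APOC3 in NACER_ASO exceeded NC by 0.16, 0.18 and 0.51 on the log2 scale in sets 2, 5 and 6. APOA1 did so by 0.13, 0.11 and 0.25, APOM by 0.12, 0.16 and 0.40, and APOH by 0.11, 0.12 and 0.14. These 4 members were higher in NACER_ASO in all 3 sets, as were 27.2% of all genes, and no member was lower in all 3, as were 11% of all genes. For APOM the difference within each set was larger than its fitted difference of 0.07 between sets 5 and 6.

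The other members gave mixed signs. APOB was at 0.27, -0.29 and -0.27 in sets 2, 5 and 6, with a blocked difference of -0.10 (95% confidence interval -0.39 to 0.19). MTTP was at 0.49, -0.01 and 0.04 (blocked 0.17, interval -0.10 to 0.45), so nearly all of its difference came from set 2. There its variant 2 was listed at 0 in NC, as in both set 6 libraries, and at 2.47 FPKM in NACER_ASO. APOE was at -0.22, 0.08 and 0.17 (blocked 0.0095, interval -0.21 to 0.23), and LCAT at -0.07, -0.29 and 0.19 (blocked -0.05, interval -0.33 to 0.22). APOA2 was at -0.05, 0.11 and 0.16, and APOC1 at -0.0097, 0.21 and 0.19. Since each set held 1 pair, whether the difference varies between sets could not be tested.

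**Figure D4:**
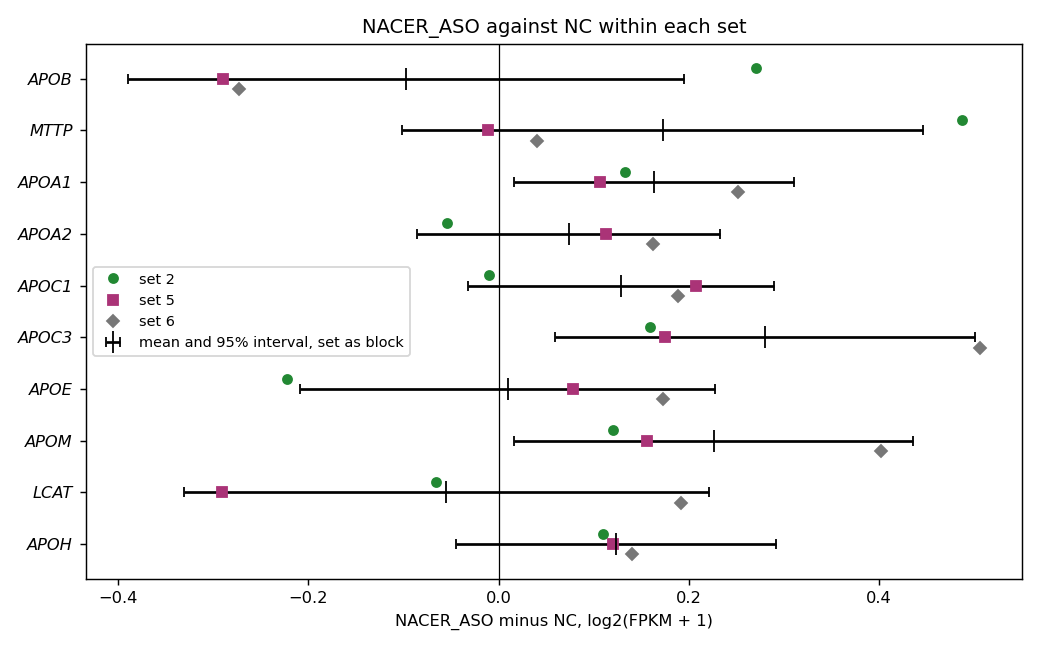
NACER_ASO minus NC in log2(FPKM + 1) within each set (coloured points, 1 pair of libraries each), with the blocked limma mean (vertical tick) and its 95% confidence interval. APOC3, APOA1, APOM and APOH lie right of 0 in all 3 sets, by 0.11 to 0.51, and APOB lies on both sides of 0.

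Without both libraries of set 5, the blocked differences were 0.33 for APOC3 (limma adjusted p = 0.538), 0.19 for APOA1 (adjusted p = 0.722), 0.26 for APOM (adjusted p = 0.618) and -0.0013 for APOB (adjusted p = 0.999). No member passed, while 14 other genes did.

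Genes of related function were grouped into lists. Of 13 further apolipoproteins, 4 were tested and all 4 differed between sets (81.2% of all genes): set 5 was lower than set 2 in 3 and higher in 0 (46.8% and 23.5% of all genes). APOC2, near 0 only in set 5, passed the filter, which a gene present only in set 5 could not. Besides APOC2 and APOA4 these were CLU, a secreted chaperone also known as apolipoprotein J, and APOL2. CLU was at 141.1, 92.3 and 96.7 FPKM in NC sets 2, 5 and 6, and APOL2 at 5.96, 6.55 and 13.6 FPKM. The list had 0 calls between NACER_ASO and NC.

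All 23 genes of assembly and secretion were tested, and 16 differed between sets, as did 81.2% of all genes. Set 5 was higher than set 2 in 4 and lower in 11 (23.5% and 46.8% of all genes), and set 6 was higher in 0 and lower in 2 (20.9% and 27.3%), with a median of 0.0076 for set 5 minus set 2. DGAT1, which makes triglyceride, was at 5.93, 58.5 and 4.93 FPKM in NC sets 2, 5 and 6 and at 7.30, 62.0 and 7.81 FPKM in NACER_ASO, so it was high in set 5 only, like MTTP. LPCAT3, a phospholipid remodelling enzyme, was at 9.47, 25.3 and 11.4 FPKM in NC, and KLHL12, a ubiquitin ligase adaptor for large transport vesicles, at 22.9, 14.5 and 25.5 FPKM. In the comparison of groups without the block, the smallest unadjusted p belonged to SURF4, a cargo receptor, SAR1B, the GTPase of the vesicle coat, and DGAT2. The order differs in the blocked fit, where these genes had differences of -0.57, -0.43 and 0.28 (limma adjusted p = 0.469, 0.533 and 0.324). SURF4 differed mainly in set 5 (-1.53) and SAR1B in set 6 (-1.29).

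Of 11 genes of lipid loading and plasma remodelling of high density lipoprotein, 8 were tested and all 8 differed between sets (81.2% of all genes), 2 higher and 3 lower in set 5 than in set 2 (23.5% and 46.8%). PLTP, the phospholipid transfer protein gene, was at 11.6, 44.5 and 17.8 FPKM in NC sets 2, 5 and 6. BMP1, a protease that cleaves the APOA1 propeptide, was at 19.4, 2.75 and 15.5 FPKM, opposite in direction to APOA1 in set 5. LIPG, endothelial lipase, was at 5.20, 7.34 and 1.64 FPKM. For NACER_ASO against NC without the block, the smallest unadjusted p belonged to PCOLCE2, LIPC and SCARB1, which in the blocked fit had differences of 0.33, 0.13 and -0.06 (limma adjusted p = 0.322, 0.431 and 0.746).

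Receptors and clearance genes split as well. Of 14, 11 were tested and 9 differed between sets, a share near the 81.2% of all genes, with 4 higher and 4 lower in set 5 than in set 2 (23.5% and 46.8% of all genes). LRP2, the receptor megalin, was at 1.25, 27.2 and 0.394 FPKM in NC sets 2, 5 and 6, and AMN, the membrane anchor of cubilin, at 1.61, 9.59 and 0.600 FPKM. VLDLR went the other way, at 6.94, 0.513 and 12.9 FPKM. CUBN, the cubilin gene, failed the filter and was also lowest in set 5, at 2.90, 0.0086 and 0.396 FPKM in NC. LIPA, the lysosomal acid lipase gene, was among those with the smallest unadjusted p between groups without the block, and had a blocked difference of 0.22 (limma adjusted p = 0.439).

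Among lipase inhibitors and partners, 4 of 5 genes were tested and all 4 differed between sets (81.2% of all genes), 1 higher and 3 lower in set 5 than in set 2 (23.5% and 46.8%). ANGPTL4, an inhibitor of lipoprotein lipase, was at 6.66, 2.28 and 10.4 FPKM in NC sets 2, 5 and 6, LMF1, a lipase maturation factor, at 1.57, 5.09 and 2.38 FPKM, and LMF2 at 37.0, 27.7 and 39.5 FPKM. No gene of this list was called between groups.

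Transcription factors known to act on these genes in liver were all tested (23 of 23), and 21 differed between sets, beside 81.2% of all genes. Set 5 was higher than set 2 in 10 and lower in 8 (23.5% and 46.8% of all genes), and set 6 higher than set 2 in 4 and lower in 11 (20.9% and 27.3%). HNF4A, a nuclear receptor, was at 29.5, 77.1 and 25.1 FPKM in NC sets 2, 5 and 6 and at 28.2, 72.8 and 28.1 FPKM in NACER_ASO. Its log2 difference was 1.35 for set 5 minus set 2 and -0.11 for set 6 minus set 2 (limma adjusted p = 0.310). FOXA1 was at 16.1, 24.5 and 6.99 FPKM in NC. FOXO1 was at 12.1, 1.57 and 8.03 FPKM in NC, lowest in set 5. What part the levels of these factors have in those of the members was not tested.

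The factors with the smallest unadjusted p between groups without the block were CEBPB, FOXA2 and SREBF1, which in the blocked fit had differences of 1.10, 0.61 and -0.14 (limma adjusted p = 0.724, 0.571 and 0.461). CEBPB stood at 2.79 FPKM for NC and 55.6 FPKM for NACER_ASO within set 2, and at 4.97 and 28.8 FPKM within set 5. Within set 6 it was at 44.5 and 4.98 FPKM, so its sign turned in that set only. FOXA2 was at 9.34 and 41.5 FPKM in NC and NACER_ASO set 2 and close in the pairs of the other sets.

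Genes most like APOB and APOA1 in profile were sought by the root mean square difference of log2(FPKM + 1) over the 6 libraries, each gene centred on its own mean. The 3 nearest to APOB were ITIH2, which encodes a chain of a plasma protease inhibitor (0.21), LOC339166 (0.23) and DSE, a dermatan sulfate epimerase gene (0.25), where the median over all genes was 1.11. Within the members, APOC3 was nearest to APOB (0.38) and APOA2 farthest (2.07). The 3 nearest to APOA1, the member with the widest range, were FABP1, which encodes the liver fatty acid binding protein (0.44), LGALS2 (0.45) and HP, the haptoglobin gene (0.52), with a median of 2.66 over all genes. FABP1 was at 30.0, 826.9 and 13.3 FPKM in NC sets 2, 5 and 6. MTTP was the nearest member to APOA1 (0.94). These are descriptions over 6 libraries that share sets.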

How the data were processed

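Libraries were made from 1 ug of Trizol-extracted RNA with a TruSeq Stranded mRNA LT kit, per the labels' protocols. The authors deposited FPKM for 63714 RefSeq transcripts with hg19 loci. StringTie 1.3.3b, FastQC 0.11.5 and Bowtie2 2.2.6 are named, per the submitters' processing notes, with neither role nor setting. Depth is rough, since only 37.6% to 53.1% of low values lay within 2% of whole multiples of the commonest step.

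FPKM was summed per symbol. The 13576 genes reaching 1 FPKM in 3 or more libraries were fitted as log2(FPKM + 1) with limma 3.58.1 (R 4.3.3, variance trend), with two-sided tests and Benjamini-Hochberg adjustment over all of them at 0.05. Fits were tested on simulated data with changes of 2 on the log2 scale planted in known genes. Between groups, 33% of these were recovered without the block and 96.5% with it (median estimate 2.01 on the log2 scale in both). Unadjusted limma p was under 0.05 in 0.11% and 5.13% of unchanged genes, so the fit without the block had low power. Between sets, the F test recovered 94%, with the other genes simulated as equal across sets, unlike the data. The planted changes were far larger than the members' blocked differences between groups, which were at most 0.28. Power for differences of that size was not tested. Fold changes on this scale understate low genes. Same-set libraries, after subtraction of group means, correlated across genes at 0.90, 0.97 and 0.90 in sets 2, 5 and 6. Correlations between libraries of different sets were not computed. Because set 5 stood apart, the values for sets 2 and 6 cannot show that their libraries are rightly paired. The set number was taken as a pairing. The 10 genes and the lists were chosen with earlier results of these data known. Named from each list were the 3 tested genes with the smallest unadjusted p in each comparison (between groups, in the fit without the block). APOA5, APOC4, CUBN, SI, ALPI and FABP2 were named after their values were seen. The level of NACER is not analysed here. Some genes that the rule names are not reported here.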

Additional observations from a re-analysis of the deposited data

How the results depend on the processing

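No member was called between NACER_ASO and NC under any alternative run, and between 8 and 10 of the 10 members differed between sets under each. With the replicate block the count of genes called between groups stayed at 0, and no call of a member changed; without both libraries of set 2, 5 or 6 the blocked fit called 3, 14 and 58 genes. The count for set 6 against set 2 was 4310 with a filter of 5 FPKM and 3752 with the most abundant transcript only, against 6550. Some uncalled differences changed sign. Between groups, APOE was at -0.037 with median-of-ratios scaling, and at -0.025 and -0.072 with the block without set 5 and without set 6. LCAT was at 0.063 with the block without set 5 and at 0.072 with array weights, which put APOA1 at -0.085. Between sets, set 6 minus set 2 was 0.0039 with median-of-ratios scaling and 0.12 with quantile normalization for LCAT, and 0.12 with the most abundant transcript for APOC1. Quantile normalization gave 0.024 for set 5 minus set 2 in LCAT and -0.087 for set 5 minus set 6 in APOE, and the most abundant transcript gave -0.13 for the latter in APOM. MTTP in set 6 against set 2 lost its call with no filter (adjusted p = 0.0612), quantile normalization (0.138) and the most abundant transcript (0.0645). Leaving out 1 library unbalances the sets, and these runs compared the groups without the block. The difference between groups then ran from -1.55 to 1.90 for APOA1, -0.82 to 0.95 for APOA2, -0.72 to 0.62 for APOB, -0.048 to 0.28 for APOC1, -0.45 to 1.03 for APOC3, -0.16 to 0.29 for APOE, -0.27 to 0.52 for APOH, -0.22 to 0.72 for APOM, -0.15 to 0.11 for LCAT and -0.98 to 1.42 for MTTP. Set 5 minus set 6 ran from -0.053 to 0.19 for APOE and -0.058 to 0.21 for APOM, and set 6 minus set 2 from -0.24 to 0.13 for LCAT. The cause was not tested. Depth is known only roughly, so no counting error can be given for genes at a few FPKM.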

Other observations

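Other enterocyte markers did not all follow CDX2. SI, sucrase-isomaltase, was at 12.99 and 13.05 FPKM in NC and NACER_ASO set 5 and at most 0.0685 FPKM elsewhere. ALPI, intestinal alkaline phosphatase, was at 1.56 and 1.99 FPKM in set 5 and at most 0.0256 FPKM elsewhere. VIL1, an actin-bundling protein gene that hepatoma lines also express, was between 50.3 and 73.7 FPKM in all 6 libraries. LGALS4 was higher in set 2, at 15.9 and 12.3 FPKM, than in sets 5 and 6, at 4.02 to 5.78 FPKM.

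Other liver plasma protein genes also differed between sets. AFP, the fetal albumin homologue, was at 766.7, 2728 and 223.6 FPKM in NC sets 2, 5 and 6, and RBP4, the retinol carrier, at 210.6, 1045 and 117.7 FPKM. TTR, the thyroxine carrier, was instead at 65.2, 36.1 and 9.38 FPKM.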
